A study of Oryctolagus cuniculus with 134 samples.

Results

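The aorta of cholesterol-fed rabbits was compared with that of chow-fed rabbits, gene by gene, by RNA sequencing. The comparison holds 13 of the 134 libraries of the study, namely every library labelled as aorta from the groups CHT (6 libraries) and Ctrl (7 libraries), with 1 library per rabbit. All rabbits were male New Zealand White animals, 12 weeks old at the start, and were followed for 16 weeks. Ctrl rabbits received standard chow and no vitamin D2. CHT rabbits received a diet with 0.3% cholesterol, and in addition vitamin D2 at 25000 U per day, scaled to body weight, during 15 days at the start. Diet and vitamin D2 therefore cannot be told apart between CHT and Ctrl, and another group is set beside them where it matters, the 7 aorta libraries of Lard rabbits, which received the same vitamin D2 with a diet of 5% lard. The other aorta libraries of the study, 7 from IR/CHT rabbits with the CHT diet, the vitamin D2 and 24 Gy of irradiation, entered the statistical model only.

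The wall of the aorta is built mainly of smooth muscle cells between layers of elastic fibres and collagen, covered on the inside by endothelium. Cells sense their own sterol content: when it is high, the factor SREBP2 stays inactive and the genes of cholesterol synthesis and lipoprotein uptake are read less, while oxysterols activate the LXR receptors, which switch on cholesterol export. In atherosclerosis, macrophages and smooth muscle cells of the wall take up lipoprotein cholesterol, break it down in lysosomes and store it in droplets as foam cells, and smooth muscle cells can leave the contractile state, make matrix and take on features of bone or cartilage cells.

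Each aorta library of the 2 groups held 18072564 to 20857556 counts, and the expression of a gene is given as CPM, its counts scaled to a common library size. At this depth, 1 CPM is about 18.8 counts, for which counting alone gives an SD of 23.1%, and at 10 CPM that SD is 7.29%. The tissue label was checked against its defining genes, and the 6 smooth muscle identity markers in the table summed to 72651 to 100761 CPM in Ctrl and 28162 to 70669 CPM in CHT. Markers of heart muscle summed to 473 to 674 CPM in Ctrl and 154.2 to 444 CPM in CHT, most of it from RYR2, while MB, the myoglobin gene, stayed under 1 CPM in all 13 libraries. Markers of other cells moved with the groups. The 13 macrophage markers summed to 256.9 to 382 CPM in Ctrl and 591 to 1352 CPM in CHT, and 10 of them were higher. Sums of neutrophil markers stayed at 4.12 CPM or less, and of T cell markers at 6.52 CPM or less, in every library. The red blood cell sum ran from 5.79 to 677 CPM in Ctrl, with the highest value in library L571, against 6.44 to 44.7 CPM in CHT, and its main gene ALAS2 measured 653 CPM in L571 and 206 CPM in L569. The part of these cells in the results was not tested, and in whole tissue fewer cells of a type and less RNA per cell cannot be told apart. On the first principal axis of the 1000 most variable genes, which held 67.5% of the variance, the 2 groups lay apart, and among CHT libraries L560 and L573 lay nearest to Ctrl.

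Of 14777 genes with enough reads, 2098 were higher and 765 were lower in CHT than in Ctrl at an adjusted p under 0.05 and a fold change over 1.5, which is 14.2% and 5.18% of the genes tested. The number of lower genes was 491 without CHT library L572, 501 without L574 and 88 with a test against the fold change itself. All log2 fold changes are given as CHT over Ctrl, with ± the standard error. Over all genes tested, the median log2 fold change was -0.04. The increases were also the larger changes, since 556 of the higher genes had a log2 fold change over 3 and 8 of the lower genes one under -3. In 1094 of the higher genes every CHT library lay above every Ctrl library, and fewer of the lower genes had groups apart in this way. Over all genes tested, called or not, the CHT libraries lay wholly above in 7.89% and wholly below in 2.36%.

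The smallest p-value among genes with a symbol belonged to ABCA1, the pump that loads cholesterol onto apolipoprotein A-I. It measured 42.7 to 63.5 CPM (median 58.7) in Ctrl and 608 to 1122 CPM (median 710.4) in CHT (log2 fold change 3.83 ± 0.19, adjusted p = 2.09e-13). The next genes were those of myeloid cells and antigen presentation: LY86, which pairs with a Toll-like receptor homologue, HLA-DMA, which loads peptides onto MHC class II, CD300LF, an inhibitory myeloid receptor, FCER1G, the shared signalling chain of Fc receptors, CD14, the co-receptor for lipopolysaccharide, and LPCAT2, an enzyme that makes platelet-activating factor. Their log2 fold changes were 7.47, 4.8, 10.23, 5.02, 4.67 and 5.06. DOCK10, a guanine nucleotide exchange factor (log2 2.59), LYN, a Src-family kinase of immune cells (log2 3.03), and VLDLR completed the 10 higher genes ranked first by p-value among those with a symbol. In all 10 genes every CHT library lay above every Ctrl library.

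Several of the largest increases started from almost no reads in Ctrl. NYAP2 had 2 reads over all Ctrl libraries and 8769 over the CHT libraries, a ratio of 4624 (95% counting interval 1280 to 38185), and 41.6 to 108 CPM (median 72.6) in CHT. CD300LF, RGS1, which ends G protein signalling, and CHIT1, a chitinase of lipid-laden macrophages, each had 1 read in Ctrl and reached medians of 18.8, 17.8 and 9.36 CPM in CHT. MMP12, the macrophage elastase, had 13 reads in all of Ctrl and measured 136 to 619.6 CPM (median 247.6) in CHT. For these genes the fold change depends on the handling of the few Ctrl reads, and the levels are the firmer statement.

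Ranked by p-value among named genes, 6 of the top 10 lower ones act in sterol synthesis or its control (SQLE, MSMO1, FDFT1, CYP51A1, HMGCS1 and INSIG1). The others were CDKN1B, which encodes the cell cycle inhibitor p27, MAP3K5, a stress-activated kinase, HOMER2, a scaffold protein, and KLHL24, an adaptor of protein degradation. CDKN1B measured 50.2 to 74.0 CPM (median 55.3) in Ctrl and 33.7 to 39.7 CPM (median 35.1) in CHT (log2 fold change -0.71 ± 0.1, adjusted p = 9.22e-06). HOMER2 measured 28.5 to 43.8 CPM (median 36.5) and 7.96 to 19.6 CPM (median 13.3) (log2 fold change -1.45 ± 0.22, adjusted p = 1.88e-05). MAP3K5 and KLHL24 fell by smaller amounts, with log2 fold changes of -0.68 ± 0.1 and -0.75 ± 0.12. In these genes the groups did not overlap. The largest decreases among genes of at least 5 CPM in the higher group included those of TRIM58 (log2 -5.88) and ALAS2 (log2 -2.87), both genes of red blood cells, and of 2 of 34 rows named U1. These rows are copies of 1 small nuclear RNA that can share reads, 6 of them were lower and 2 higher, and their values are uncertain. TRIM58 measured up to 59.9 CPM in Ctrl with a median of 1.66 CPM. Without Ctrl libraries L569 and L571, which had the most ALAS2, neither gene passed the test.

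Enzymes of cholesterol synthesis were lower in CHT. Of 20 genes listed, 14 were tested, 10 were lower and 0 were higher, with a list median of -0.75. SQLE, squalene epoxidase and a rate-limiting step, measured 14.7 to 33.3 CPM (median 23.1) in Ctrl and 5.02 to 8.78 CPM (median 6.03) in CHT (log2 fold change -1.81 ± 0.22, adjusted p = 6.22e-07). HMGCS1, which makes HMG-CoA, measured 24.04 to 72.4 CPM (median 36.1) and 10.7 to 16.1 CPM (median 14.8) (log2 fold change -1.62 ± 0.23, adjusted p = 6.16e-06). The groups did not overlap in either gene. FDFT1, which makes squalene, CYP51A1, the lanosterol demethylase, and MSMO1, the methylsterol oxidase, had log2 fold changes of -1.54 ± 0.2, -1.71 ± 0.23 and -1.58 ± 0.2. ACAT2 (-0.7), FDPS (-0.64) and SC5D (-0.77), enzymes of the early and the late steps, were lower as well. The other members did not pass: MVK, PMVK, LSS and NSDHL had log2 fold changes between -0.11 and -0.02. Against Lard, where both groups had received vitamin D2, 1382 genes (9.35%) differed, 1083 (7.33%) higher and 299 (2.02%) lower in CHT. The lower genes numbered 143 without CHT library L572 and 144 without L574, and without Lard library L564 they were also fewer by over 1.5 times, with 955 of 1154 genes higher. In that comparison 10 of the 14 synthesis genes were lower, and SQLE differed by log2 -1.58, adjusted p = 1.54e-05.

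**Figure D1:**
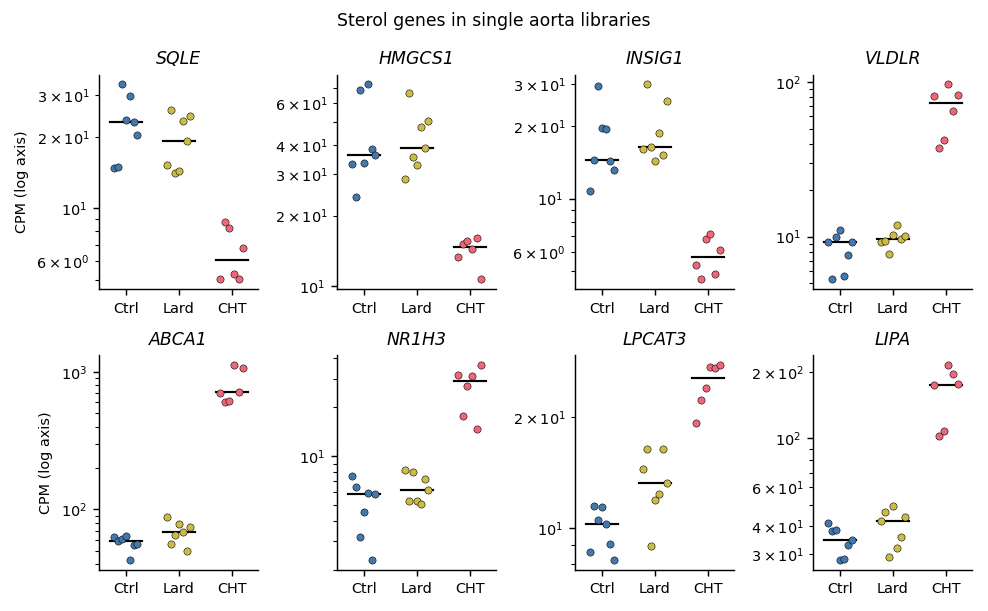
Level of 8 sterol genes in CPM (log axis) in each aorta library of Ctrl (7), Lard (7) and CHT (6), with the group median as a line. SQLE, HMGCS1 and INSIG1 lie wholly lower and ABCA1, NR1H3, LPCAT3, VLDLR and LIPA wholly higher in CHT than in Ctrl.

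Genes of sterol sensing and lipoprotein uptake moved in both directions, 2 higher and 3 lower of 9 tested, and 3 in all without CHT library L572. INSIG1, which holds the SREBP complex in the endoplasmic reticulum, measured 10.7 to 29.5 CPM (median 14.5) in Ctrl and 4.61 to 7.11 CPM (median 5.69) in CHT (log2 fold change -1.58 ± 0.22, adjusted p = 5.25e-06). The groups did not overlap. SREBF2, the gene of SREBP2 itself, had a log2 fold change of -1.11 ± 0.37, and it lost the call in 8 of 20 alternative settings. VLDLR, the receptor for triglyceride-rich particles, went the other way, from 5.31 to 11.1 CPM (median 9.19) to 37.4 to 96.6 CPM (median 72.8) (log2 fold change 3.02 ± 0.25, adjusted p = 2.77e-09). STARD4, a carrier of free cholesterol inside the cell, was also higher (log2 0.8 ± 0.25) and lost the call without CHT library L572. SCAP, MYLIP and INSIG2 had log2 fold changes between -0.33 and 0.22 and did not pass. VLDLR was higher than in Lard too (log2 2.79, adjusted p = 5.27e-08).

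Cholesterol export genes rose. Of 9 tested LXR targets and partners, 6 were higher and 0 lower. NR1H3, the gene of LXR alpha, measured 2.29 to 7.56 CPM (median 5.84) in Ctrl and 14.8 to 36.4 CPM (median 29.0) in CHT (log2 fold change 2.37 ± 0.27, adjusted p = 2.28e-07). LPCAT3, which remodels membrane phospholipids, measured 8.20 to 11.5 CPM (median 10.3) and 19.4 to 27.7 CPM (median 25.6) (log2 fold change 1.31 ± 0.14, adjusted p = 5.69e-08). APOC1, an apolipoprotein, and PLTP, the phospholipid transfer protein, had log2 fold changes of 3.47 and 3.08. The list median was 2.37, against -0.04 over all genes. NR1H2, the gene of LXR beta, did not pass (log2 -0.67 ± 0.43). In Lard, ABCA1 lay below CHT by log2 3.56, adjusted p = 9.37e-13.

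Of 13 genes for the storage and movement of cholesterol, 4 were higher and 0 lower. LIPA, the acid lipase that frees cholesterol from its esters in lysosomes, measured 28.2 to 41.3 CPM (median 34.9) in Ctrl and 103 to 215 CPM (median 175.2) in CHT (log2 fold change 2.23 ± 0.21, adjusted p = 1.31e-08). PLIN2, the coat protein of lipid droplets, measured 22.5 to 30.3 CPM (median 26.9) and 45.9 to 108 CPM (median 70.3) (log2 fold change 1.51 ± 0.19, adjusted p = 1.27e-06). NPC2, which takes cholesterol out of the lysosome, rose by a log2 fold change of 1.17 ± 0.18. SOAT1, which esterifies cholesterol for storage, had overlapping groups (24.1 to 40.4 CPM (median 30.8) in Ctrl, 34.9 to 63.6 CPM (median 47.3) in CHT) and a log2 fold change of 0.62 ± 0.17, which is near the threshold of 1.5-fold. SOAT1 lost its call in 5 of 20 alternative settings. LIPE, the lipase of neutral droplets, and NCEH1, a second ester hydrolase, did not pass.

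Receptors for modified lipoproteins and carriers of fatty acids were higher in 7 of 13 tested genes and lower in 0. CD68, a lysosomal marker of macrophages, measured 7.02 to 17.0 CPM (median 9.25) in Ctrl and 127 to 262.6 CPM (median 198.7) in CHT. MSR1, scavenger receptor A, measured 0.656 to 1.29 CPM (median 0.795) and 9.82 to 84.0 CPM (median 35.5) (log2 fold change 5.56 ± 0.57, adjusted p = 4.28e-08). FABP5, a fatty acid carrier, rose from 2.74 to 6.71 CPM (median 6.48) to 44.0 to 150.9 CPM (median 101). OLR1, MARCO, SCARA3 and FABP3 had log2 fold changes of 2.35, 3.72, 1.68 and 1.83. CD36, the receptor for oxidized LDL and fatty acids, did not pass (log2 1.1 ± 0.42, adjusted p = 0.0509), nor did LPL, lipoprotein lipase (log2 0.99 ± 0.66).

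All 9 tested foam cell genes were higher, and remained called in each of the 20 alternative settings. GPNMB, a glycoprotein of lipid-laden phagocytes, measured 6.69 to 17.8 CPM (median 15.8) in Ctrl and 642 to 2522 CPM (median 971) in CHT (log2 fold change 6.48 ± 0.64, adjusted p = 2.18e-08). PLA2G7, a lipoprotein-associated phospholipase, measured 6.1995 to 14.2 CPM (median 10.4) and 37.3 to 92.6 CPM (median 64.6) (log2 fold change 2.7 ± 0.27, adjusted p = 3.54e-08). LGALS3, galectin-3, measured 27.5 to 70.9 CPM (median 51.6) and 144 to 428 CPM (median 194.9). SPP1, osteopontin, measured 20.2 to 83.3 CPM (median 51.8) and 285 to 793 CPM (median 423) (log2 fold change 3.35 ± 0.61, adjusted p = 1.52e-04). CHI3L1, MMP9 and ATP6V0D2 rose by log2 4.81, 6.02 and 5.02. Against Lard, 5 of the 9 were higher in CHT, while SPP1 did not pass (log2 0.2, adjusted p = 0.87). The macrophage marker sums given above were higher in the same libraries, and their part in these increases was not tested.

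Lysosomal genes rose as a large group, 20 of 29 tested, with 0 lower and a median of 1.03. CTSB, the cysteine protease cathepsin B, was abundant already in Ctrl and measured 272.2 to 365 CPM (median 322), against 1307 to 3694 CPM (median 1928) in CHT (log2 fold change 2.78 ± 0.25, adjusted p = 7.26e-09). CTSS, cathepsin S of antigen-presenting cells, measured 5.87 to 13.01 CPM (median 7.41) and 80.5 to 276.8 CPM (median 153.9) (log2 fold change 4.3 ± 0.37, adjusted p = 3.29e-09). GUSB, beta-glucuronidase, rose from 12.4 to 19.6 CPM (median 17.2) to 74.2 to 166.1 CPM (median 93.7). GLB1, beta-galactosidase, and CTSK, the collagen-degrading cathepsin K, had log2 fold changes of 2.29 ± 0.23 and 1.25 ± 0.17. CTSZ, cathepsin Z, had a log2 fold change of 1.66. LAMP2 did not pass (log2 -0.05 ± 0.1), and neither did the regulators of lysosome formation TFEB (-0.48 ± 0.4), TFE3 (0.49 ± 0.21) and MITF (-0.19 ± 0.11).

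The vacuolar proton pump, which acidifies lysosomes, was higher in 10 of 13 tested subunits and lower in 0. ATP6V1B2 measured 33.7 to 39.4 CPM (median 36.0) in Ctrl and 83.6 to 133 CPM (median 102) in CHT (log2 fold change 1.55 ± 0.14, adjusted p = 9.97e-09), with no overlap. ATP6V1H and ATP6V0B rose by log2 1.12 ± 0.14 and 1.24 ± 0.16. ATP6V0E1, ATP6V1D and ATP6V1E1 had log2 fold changes from 0.06 to 0.21. Against Lard, 14 of the 29 lysosomal genes and 7 of the 13 pump genes were higher in CHT. OSTM1, a partner of the lysosomal chloride channel, followed the same course, from 20.2 to 29.9 CPM (median 26.3) to 54.5 to 75.3 CPM (median 63.7) (log2 fold change 1.3 ± 0.14, adjusted p = 1.12e-07).

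Energy metabolism changed at single steps. Of 16 genes of glycolysis and lactate export, 6 were higher and 1 lower. PFKFB3, which makes the activator of phosphofructokinase, measured 17.6 to 61.6 CPM (median 43.6) in Ctrl and 90.5 to 439 CPM (median 203) in CHT (log2 fold change 2.37 ± 0.36, adjusted p = 1.30e-05). HK2, an inducible hexokinase, measured 16.5 to 28.1 CPM (median 19.4) and 33.6 to 71.4 CPM (median 47.6) (log2 fold change 1.33 ± 0.23, adjusted p = 7.95e-05), and HK3, a hexokinase of blood cells, 0 to 0.284 CPM (median 0.111) and 0.768 to 3.51 CPM (median 1.56). GPI, PKM and SLC16A3, a lactate exporter, rose by log2 0.69, 1.11 and 4.15. PFKP, the platelet-type phosphofructokinase, was lower (log2 -0.66 ± 0.19) and lost the call without CHT library L574. In the pentose phosphate pathway, PGD rose by log2 0.84 ± 0.16, while TKT did not pass (-0.01 ± 0.13).

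Mitochondrial genes showed few calls. None of the 29 tested respiratory chain subunits was called by edgeR or by DESeq2, with a median log2 fold change of -0.10, and 5 had an unadjusted p under 0.05. Without Ctrl library L552, edgeR called 1. NDUFV2 (-0.45 ± 0.15), NDUFS1 (-0.28 ± 0.1) and COX8A (0.5 ± 0.14) passed on the adjusted p and not on the fold change. In the citric acid cycle 1 of 13 genes was called, IDH3A, a subunit of isocitrate dehydrogenase (log2 0.73 ± 0.13). Fatty acid oxidation had 1 higher gene of 15, PDK4, the kinase that shuts off pyruvate entry (1.09 ± 0.3), and 1 lower, ACADM, the medium-chain dehydrogenase (-0.62 ± 0.18), which lost the call without Ctrl library L551, CHT L572 or CHT L574. In fatty acid synthesis ACSL5 (1.9 ± 0.31) and ELOVL5 (0.62 ± 0.11) were higher and THRSP, a lipogenic regulator, was lower (-2.82 ± 1.04) of 11 tested, and 1 was called without CHT library L572 or without Ctrl libraries L569 and L571 together. THRSP lost the call in 13 of 20 alternative settings, and ELOVL5 without Ctrl library L551 or CHT L572. ACLY and ACACA, the entry enzymes of that pathway, did not pass (log2 -0.09 ± 0.11 and 0.15 ± 0.15).

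Nutrient transporters were higher in 13 of 28 tested genes and lower in 1. SLC7A7, an exporter of basic amino acids, measured 0.683 to 2.35 CPM (median 1.85) in Ctrl and 9.05 to 33.0 CPM (median 21.3) in CHT (log2 fold change 3.64 ± 0.36, adjusted p = 2.74e-08). SLC46A1, which carries folate out of acidic compartments, measured 0.111 to 0.505 CPM (median 0.382) and 2.96 to 13.1 CPM (median 9.06) (log2 fold change 4.61 ± 0.49, adjusted p = 7.13e-08). SLC38A6, an amino acid carrier, rose by log2 1.36 ± 0.17. SLC2A12, a glucose carrier, was the lower one (-1.03 ± 0.27).

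Iron and redox genes rose in part. Of 17 iron genes, 8 were higher and 0 lower. FTL, ferritin light chain, measured 199.6 to 309 CPM (median 248.4) in Ctrl and 689 to 2287 CPM (median 1293) in CHT (log2 fold change 2.5 ± 0.3, adjusted p = 4.07e-07). CP, the ferroxidase ceruloplasmin, rose from 2.36 to 18.1 CPM (median 9.23) to 62.1 to 229.4 CPM (median 82.6) (log2 fold change 3.5 ± 0.52, adjusted p = 1.15e-05). HMOX1, which breaks down heme, rose from 1.16 to 4.14 CPM (median 3.03) to 9.39 to 35.2 CPM (median 23.4) (log2 fold change 2.97 ± 0.41, adjusted p = 3.89e-06). TFRC, the transferrin receptor, and SLC40A1, the iron exporter, did not pass (log2 0.31 ± 0.18 and 0.13 ± 0.16). Of 21 NRF2 targets and glutathione genes, 6 were higher, among them SRXN1, sulfiredoxin (1.93 ± 0.28), SLC7A11, the cystine importer (2.77), and CAT, catalase (0.64 ± 0.14), whose call was lost without CHT library L572. NQO1, a standard NRF2 target, did not pass (0.15 ± 0.17).

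Of 19 genes of the unfolded protein and amino acid stress response, 5 were higher and 1 lower. SHMT2 and PSAT1, enzymes of serine metabolism, rose by log2 2.31 ± 0.34 and 2.92 ± 0.61, and SDF2L1, a chaperone partner, by 1.79 ± 0.34. Without CHT library L572, which had the highest level of PSAT1, its log2 fold change was 1.89. DDIT3, which encodes CHOP, was lower, 124 to 170.6 CPM (median 139) in Ctrl and 75.4 to 109 CPM (median 91.5) in CHT (log2 fold change -0.66 ± 0.16, adjusted p = 0.00227). HSPA5, the main chaperone of the endoplasmic reticulum, did not pass (0.18 ± 0.14). One of 12 heat shock genes was called, HSPB6, a small heat shock protein of muscle (log2 -0.77 ± 0.27), and it lost the call in 11 of 20 alternative settings.

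**Figure D2:**
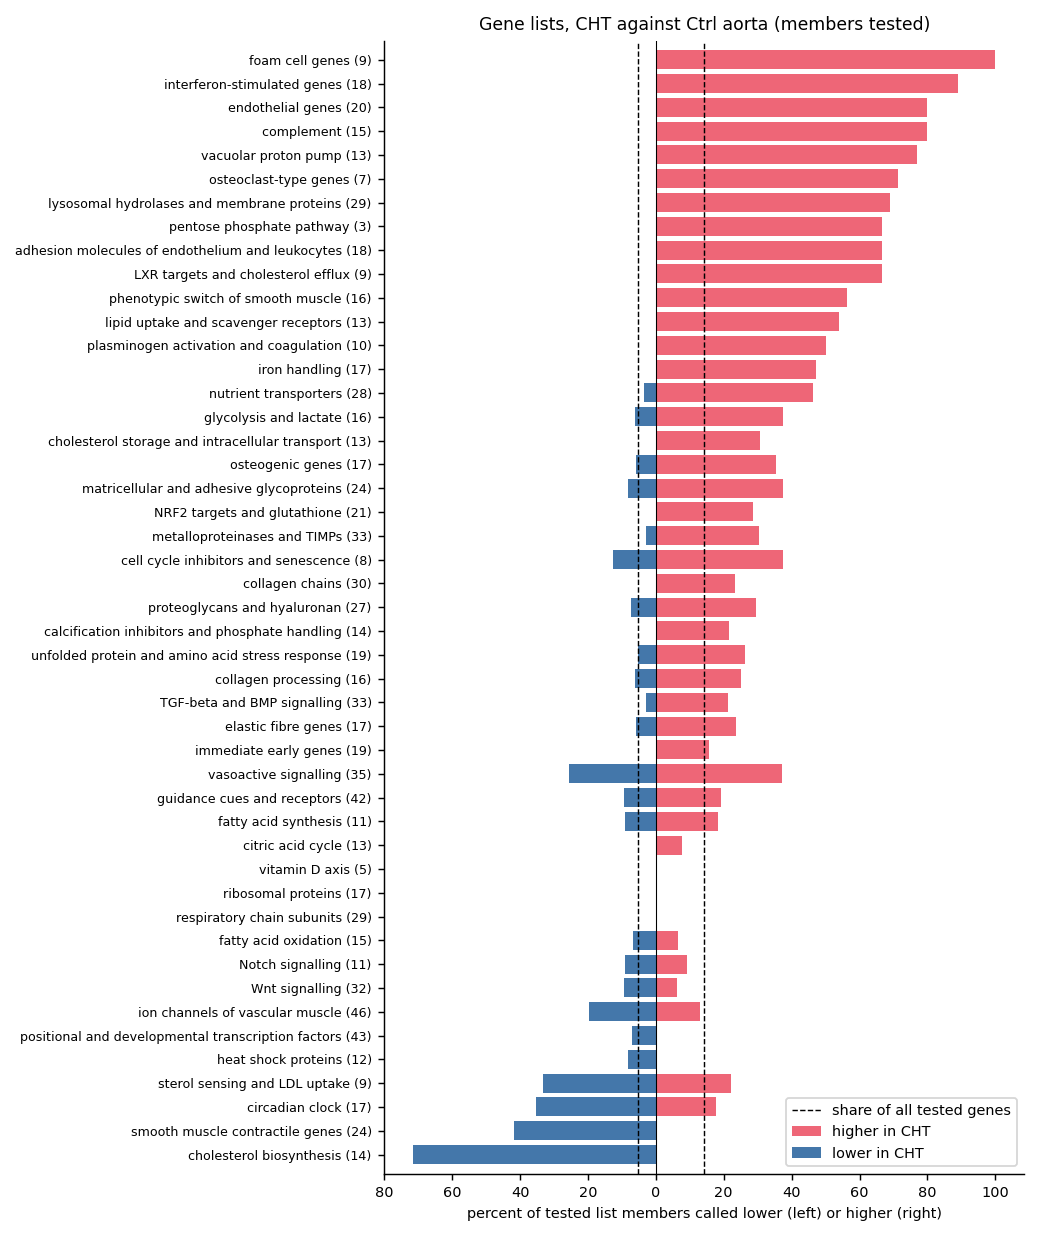
Percent of the tested members of each of 47 gene lists that were called higher (red, to the right) or lower (blue, to the left) in CHT against Ctrl aorta, with the number tested in brackets and dashed lines at 14.2% and 5.18%, the shares of all genes tested. Cholesterol biosynthesis and the smooth muscle contractile genes hold lower calls without higher ones, and foam cell and interferon-stimulated genes lead the higher calls.

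Contractile genes of smooth muscle were lower in 10 of 24 tested and higher in 0, with a median of -0.67. MYH11, smooth muscle myosin and by itself 59998 to 83270.5 CPM (median 74226) in Ctrl, measured 23066 to 58417 CPM (median 41244) in CHT (log2 fold change -0.83 ± 0.26, adjusted p = 0.0192), and the groups did not overlap. Its call was lost without CHT library L572, without L574, and without Ctrl libraries L569 and L571 together. SMTN, smoothelin, measured 514 to 2132 CPM (median 1125) and 219.7 to 564.7 CPM (median 460.1) (log2 fold change -1.51 ± 0.3, adjusted p = 4.21e-04). MYL9, the regulatory light chain, measured 1045 to 1378 CPM (median 1169) and 438 to 1074 CPM (median 729) (log2 fold change -0.73 ± 0.21, adjusted p = 0.00877). LMOD1, leiomodin, was lower (log2 -0.9 ± 0.26). TPM1, Tpm2, ITGA8, MRVI1 and PDLIM3 had log2 fold changes from -0.92 to -0.62. ACTA2, smooth muscle actin, measured 9039 to 12697 CPM (median 11626) and 4318 to 10244 CPM (median 6698) and did not pass (log2 fold change -0.62 ± 0.27, adjusted p = 0.0843), nor did MYOCD, the master co-activator of these genes (log2 fold change -0.64 ± 0.28, adjusted p = 0.0823). This count depended on the libraries: it was 3 without CHT library L572 and 3 without L574, 4 without Ctrl libraries L569 and L571, 16 without CHT library L560, and 17 without CHT libraries L560 and L573. Against Lard, 1 of the 24 genes was lower, SMTN (log2 -0.93, adjusted p = 0.0376), while 2.02% of all genes were lower.

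Of 46 ion channel and pump genes of vascular muscle, 6 were higher and 9 lower, against 14.2% and 5.18% of all genes. The higher calls were thus no more frequent than over all genes. RYR2, a calcium release channel of the muscle store, measured 359 to 575.5 CPM (median 507) in Ctrl and 126 to 362 CPM (median 231.6) in CHT (log2 fold change -1.07 ± 0.24, adjusted p = 0.00134). RYR2 made up most of the heart muscle marker sums given above, which moved with it. ATP2A2, the pump that fills this store, measured 584 to 992 CPM (median 881) and 389 to 649 CPM (median 457) (log2 fold change -0.77 ± 0.15, adjusted p = 2.34e-04). CACNA2D1, a calcium channel subunit, was lower (log2 -0.65 ± 0.14) and lost the call without CHT library L574. Also lower were the potassium channel genes KCNMA1 and KCNA5, with log2 fold changes of -0.86 and -1.04. ATP2B1, the calcium pump of the cell membrane, rose from 62.5 to 90.6 CPM (median 79.1) to 105 to 142 CPM (median 120.3) (log2 fold change 0.7 ± 0.12, adjusted p = 6.26e-05). TRPV2 and ORAI1, both calcium entry channels, rose by 1.15 ± 0.22 and 1.24 ± 0.32. The number of calls in this list was 9 without CHT library L574 and 9 without Ctrl libraries L569 and L571.

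Vasoactive signalling had 13 higher and 9 lower genes of 35. The nitric oxide receptor and its effector were lower: GUCY1B1, the beta subunit of soluble guanylate cyclase, measured 82.1 to 138 CPM (median 127) in Ctrl and 52.1 to 92.9 CPM (median 69.8) in CHT (log2 fold change -0.76 ± 0.18, adjusted p = 0.00262). GUCY1A1, the alpha subunit, had log2 -0.65 ± 0.15 and lost the call without Ctrl library L551, and PRKG1, the cGMP-dependent kinase, measured 445 to 571.9 CPM (median 488) and 188.5 to 394 CPM (median 258.4) (log2 fold change -0.87 ± 0.22, adjusted p = 0.00413), without overlap. PDE5A, which breaks down cGMP, and RGS5, a regulator of G protein signalling in mural cells, were lower too (log2 -0.9 and -0.99). EDN1, endothelin-1, measured 1.26 to 3.07 CPM (median 2.47) in Ctrl and 3.40 to 54.3 CPM (median 28.3) in CHT (log2 fold change 3.6 ± 0.54, adjusted p = 1.17e-05). CHT library L573, at 3.40 CPM, lay far below the other five for EDN1. NOS3, endothelial nitric oxide synthase, measured 1.22 to 6.31 CPM (median 3.69) and 2.27 to 34.9 CPM (median 17.8) (log2 fold change 2.23 ± 0.54, adjusted p = 0.00284). TBXAS1, thromboxane synthase, and PTGER4, a prostaglandin E receptor, rose by 3.14 ± 0.4 and 2.27 ± 0.34, and PTGS2 and NOS2, the inducible prostaglandin and nitric oxide synthases, by 2.47 and 3.76.

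Endothelial genes were higher in 16 of 20 tested and lower in 0, with a median of 1.52. VWF, von Willebrand factor, measured 16.8 to 34.5 CPM (median 24.3) in Ctrl and 29.8 to 386 CPM (median 225) in CHT (log2 fold change 3.07 ± 0.52, adjusted p = 5.41e-05). PECAM1, the junction protein CD31, measured 19.6 to 47.8 CPM (median 46.0) and 37.4 to 250.1 CPM (median 132) (log2 fold change 1.96 ± 0.34, adjusted p = 7.28e-05), and FLI1, an endothelial and blood cell factor, rose by log2 1.09 ± 0.15. CHT library L573 lay within the Ctrl range for VWF, PECAM1 and NOS3. KDR, the main VEGF receptor, did not pass (0.48 ± 0.27). None of 5 lymphatic endothelial markers was called by edgeR, 1 had an unadjusted p under 0.05, and no alternative setting called more than 1. Against Lard, 2 of the 20 endothelial genes were higher, near the share of 7.33% over all genes.

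**Figure D3:**
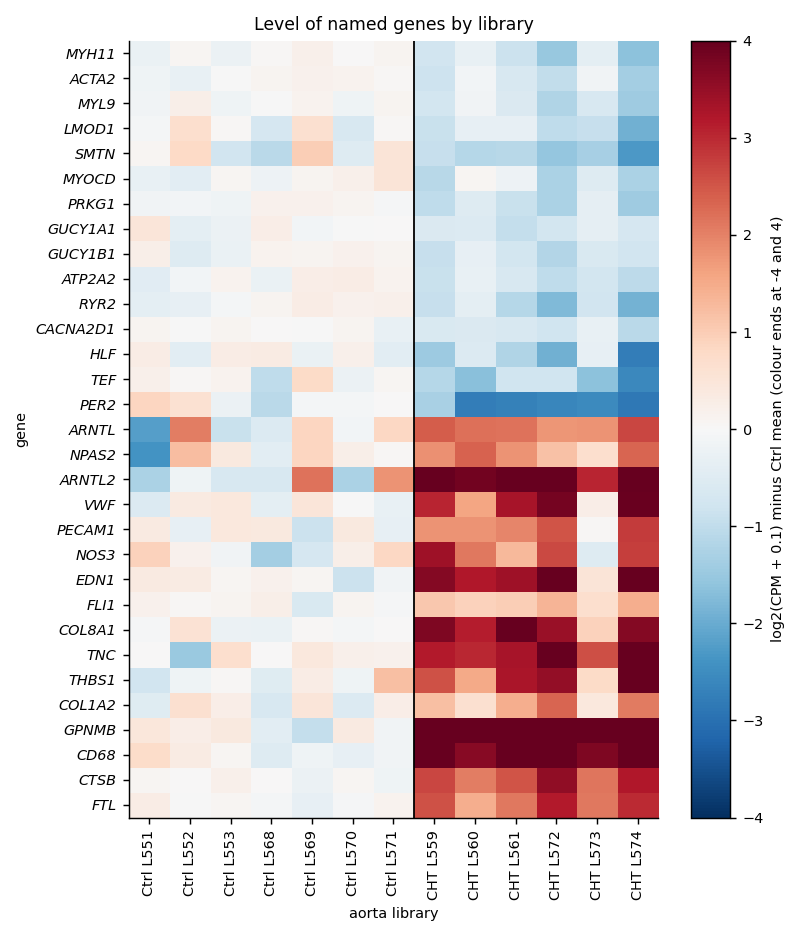
log2(CPM + 0.1) of 31 genes in each of the 7 Ctrl and 6 CHT aorta libraries, as the difference from the Ctrl mean, with red for higher, blue for lower and colours ending at -4 and 4. MYH11, ACTA2 and RYR2 are palest in CHT libraries L560 and L573, and L573 is close to Ctrl for VWF, PECAM1, NOS3 and EDN1, while GPNMB, CD68, CTSB and FTL are red in every CHT library.

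Genes of the switch of smooth muscle to a matrix-making state were higher in 9 of 16 tested and lower in 0. COL8A1, a short-chain collagen of migrating muscle cells, measured 10.6 to 19.0 CPM (median 12.2) in Ctrl and 24.1 to 245.5 CPM (median 150.6) in CHT (log2 fold change 3.46 ± 0.5, adjusted p = 7.53e-06). TNC, tenascin-C, measured 3.63 to 16.5 CPM (median 11.6) and 62.2 to 426 CPM (median 98.3) (log2 fold change 4.0 ± 0.64, adjusted p = 2.58e-05). THBS1, thrombospondin-1, measured 16.7 to 65.8 CPM (median 25.3) and 47.8 to 903 CPM (median 219) (log2 fold change 3.27 ± 0.57, adjusted p = 8.73e-05). LUM, lumican, and TNFRSF11B, osteoprotegerin, rose less, by 0.96 ± 0.33 and 0.74 ± 0.2, and LUM lost the call without Ctrl library L571, CHT L572 or CHT L574. CHT library L573 was the lowest of its group for COL8A1, at 24.1 CPM. In Lard, COL8A1 spread from 6.68 to 148.0 CPM, and the difference between CHT and Lard did not pass the test for COL8A1 (log2 0.85, adjusted p = 0.26) or TNC (log2 0.39, adjusted p = 0.73). FN1, fibronectin, and PDGFB, a growth factor for muscle cells, rose against Ctrl by 1.79 and 2.95.

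Collagen genes changed in part of the chains. Of 30 collagen chain genes, 7 were higher (23.3%, against 14.2% of all genes) and 0 lower. COL1A2 measured 766 to 1859 CPM (median 1432) in Ctrl and 1601 to 5951 CPM (median 3019.7) in CHT (log2 fold change 1.43 ± 0.34, adjusted p = 0.00254), and COL5A2 503 to 1059.8 CPM (median 602) and 729.7 to 2081 CPM (median 1251) (log2 fold change 1.07 ± 0.24, adjusted p = 0.00135). COL1A1, the partner chain of COL1A2, measured 244.4 to 1518 CPM (median 600.4) and 708 to 2889.8 CPM (median 1875) and narrowly missed the threshold (log2 fold change 1.31 ± 0.51, adjusted p = 0.0522). COL3A1 did not pass (log2 fold change 0.53 ± 0.26, adjusted p = 0.13). COL11A1, a minor fibrillar chain of cartilage, had a log2 fold change of 3.65 ± 0.98, and COL4A4, COL12A1 and COL15A1 of 0.99, 0.79 and 1.17. Without CHT libraries L560 and L573, the count was 12. Against Lard, 0 collagen chains were higher and 4 were lower in CHT, against 7.33% and 2.02% of all genes.

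Of 16 collagen processing genes, 4 were higher and 1 lower, and the number called was 3 without CHT library L574 and 8 without L560 and L573. ADAMTS14, a procollagen N-proteinase, measured 8.47 to 15.5 CPM (median 9.62) in Ctrl and 34.9 to 87.6 CPM (median 65.5) in CHT (log2 fold change 2.56 ± 0.24, adjusted p = 1.03e-08), and it was higher than in Lard (log2 2.13, adjusted p = 1.06e-06). P4HA3, a prolyl hydroxylase subunit, rose by 3.23 ± 0.58 and BMP1, the procollagen C-proteinase, by 1.22 ± 0.37, but the call of BMP1 was lost without CHT library L574. PCOLCE2, an enhancer of that proteinase, was lower (-0.87 ± 0.2), and its groups did not overlap.

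Of 17 elastic fibre genes, 4 were higher and 1 lower (29.4% in either direction, against 19.4% of all genes). FBN2, the fibrillin of developing tissue, measured 0.739 to 4.28 CPM (median 2.58) in Ctrl and 8.54 to 25.2 CPM (median 19.0) in CHT (log2 fold change 2.86 ± 0.32, adjusted p = 1.68e-07), and it exceeded Lard by log2 2.07, adjusted p = 3.86e-05. LOXL4 and LOXL2, cross-linking enzymes, rose by 2.03 ± 0.34 and 2.04 ± 0.35. MFAP5, a microfibril protein, was lower (-1.05 ± 0.25). FBN1, FBLN5 and LOX did not pass, with log2 fold changes of -0.08 ± 0.13, -0.54 ± 0.24 and 0.44 ± 0.23. Elastin was not analysed here under its symbol.

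Proteoglycan and hyaluronan genes were higher in 8 and lower in 2 of 27, and 6 were called without CHT library L572 and 6 without L574. SRGN, the granule proteoglycan of blood cells, rose from 1.10 to 3.60 CPM (median 2.12) to 18.5 to 65.6 CPM (median 33.8) (log2 fold change 4.07 ± 0.43, adjusted p = 6.13e-08). CD44, the hyaluronan receptor, measured 127 to 230.5 CPM (median 172.5) and 258.1 to 489.9 CPM (median 352) (log2 fold change 1.03 ± 0.15, adjusted p = 8.77e-06). SDC4, a syndecan, rose by 0.97 ± 0.17 and ACAN, aggrecan, by 1.91 ± 0.65. HSPG2, perlecan of the basement membrane, and CSPG4, the NG2 proteoglycan of mural cells, were lower (log2 -0.89 ± 0.32 and -1.26 ± 0.48), and they lost the call in 12 and 14 of 20 alternative settings. ACAN lost it in 9, among them those without Ctrl library L551, L568, L569 or L571 and without CHT library L572 or L574. VCAN, versican, lay wholly above Ctrl and missed the fold threshold by little (log2 fold change 0.58 ± 0.18, adjusted p = 0.0184), and BGN and DCN did not pass (log2 0.51 and -0.49).

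Among 24 matricellular and adhesive glycoproteins, 9 were higher and 2 lower. The laminins split: LAMB1 rose from 66.2 to 141 CPM (median 119.7) to 190.04 to 441 CPM (median 235.7) (log2 fold change 1.37 ± 0.21, adjusted p = 1.57e-05), and LAMA4, of muscle and vessel basement membranes, went from 780.2 to 1267 CPM (median 1105) to 525 to 855 CPM (median 678) (log2 fold change -0.66 ± 0.16, adjusted p = 0.00255). SPARCL1, an abundant secreted protein of the wall, was lower (log2 -0.73 ± 0.23) and lost the call without CHT library L572. MGP, matrix Gla protein and an inhibitor of calcification, measured 1648 to 4879 CPM (median 3648) and 1875 to 3517 CPM (median 2551) and did not pass (log2 fold change -0.31 ± 0.23, adjusted p = 0.35).

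Of 33 metalloproteinase and inhibitor genes, 10 were higher and 1 lower. TIMP1 measured 63.5 to 109 CPM (median 73.6) in Ctrl and 136 to 471 CPM (median 260.1) in CHT (log2 fold change 1.85 ± 0.3, adjusted p = 2.73e-05). ADAM9, a shedding protease, rose by 0.85 ± 0.12. MMP28, epilysin, was lower (-0.8 ± 0.18), without overlap of the groups. MMP1, MMP3 and MMP2 had log2 fold changes of 7.44, 3.81 and 0.81. In plasminogen activation and coagulation, 5 of 10 genes were higher, with PLAU, urokinase, from 16.2 to 30.6 CPM (median 25.2) to 48.6 to 112 CPM (median 67.5) (log2 fold change 1.69 ± 0.2, adjusted p = 4.89e-07), PLAUR, its receptor, by 3.66 ± 0.59, and F5, factor V, by 4.4 ± 0.64.

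**Figure D4:**
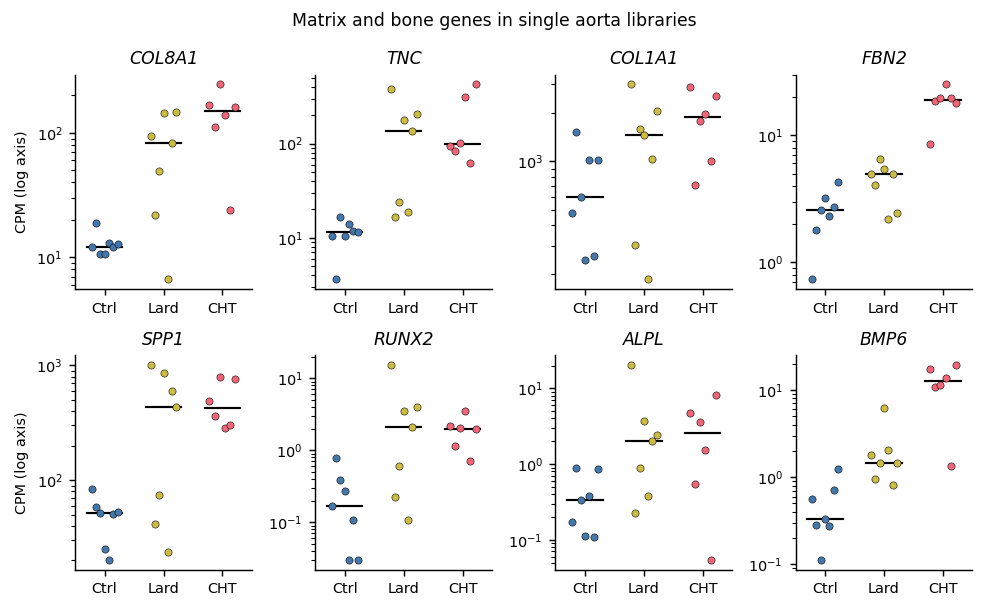
Level of 8 matrix and bone genes in CPM (log axis) in each aorta library of Ctrl (7), Lard (7) and CHT (6), with the group median as a line and libraries at 0 drawn at 0.03 CPM. FBN2 and BMP6 have Lard medians well under those of CHT, whereas Lard libraries spread over the range of both other groups for COL8A1, TNC, SPP1, RUNX2 and ALPL.

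Bone-related genes were higher in 6 of 17 tested and lower in 1. BMP6, a bone morphogenetic protein of endothelium, measured 0.112 to 1.24 CPM (median 0.332) in Ctrl and 1.35 to 19.3 CPM (median 12.6) in CHT (log2 fold change 4.61 ± 0.63, adjusted p = 3.05e-06), with L573 the low library of CHT. RUNX2, the master factor of bone formation, stayed low, 0 to 0.783 CPM (median 0.170) in Ctrl and 0.701 to 3.46 CPM (median 2.01) in CHT (log2 fold change 2.92 ± 0.85, adjusted p = 0.0113), and ALPL, tissue-nonspecific alkaline phosphatase, measured 0.109 to 0.895 CPM (median 0.337) and 0.0540 to 8.20 CPM (median 2.56) (log2 fold change 2.91 ± 0.87, adjusted p = 0.0135). ALPL lost the call without CHT library L574, its highest library (adjusted p = 0.0574). IBSP, bone sialoprotein, had 2 reads in all of Ctrl and 0.0540 to 12.8 CPM (median 1.83) in CHT. SOST, sclerostin, was lower without overlap, 7.70 to 19.8 CPM (median 12.2) and 2.42 to 7.63 CPM (median 4.50) (log2 fold change -1.44 ± 0.33, adjusted p = 0.0016). SP7 and BGLAP, genes of mature bone cells, did not pass (1.85 ± 2.15 and -0.31 ± 0.72). Relative to Lard, SPP1, RUNX2, ALPL and IBSP did not pass the test (log2 0.2, -0.93, -0.46 and -3.11), while 4 of the 17 genes were lower in CHT and 1, BMP6, was higher (log2 2.55, adjusted p = 0.00218). Over all genes, 2.02% were lower and 7.33% higher in CHT than in Lard.

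Phosphate handling and inhibitors of calcification had 3 higher genes (21.4%, against 14.2% of all genes) and 0 lower of 14. XPR1, the phosphate exporter, measured 15.9 to 23.5 CPM (median 20.7) in Ctrl and 64.1 to 151.7 CPM (median 69.4) in CHT (log2 fold change 2.13 ± 0.19, adjusted p = 7.26e-09), and SLC20A1, a phosphate importer, rose by 0.6 ± 0.16. SLC20A1 lost the call in 5 of 20 alternative settings, among them those without Ctrl library L552 or L569 and without CHT library L561 or L572. Of 7 osteoclast-type genes 5 were higher, among them SIGLEC15 (0.0553 to 0.561 CPM (median 0.124) in Ctrl, 3.40 to 15.7 CPM (median 10.8) in CHT). ENPP1, ANKH and ABCC6, which keep pyrophosphate available, did not pass (-0.35 ± 0.15, 0.11 ± 0.16 and 0.52 ± 0.56). None of the 5 tested vitamin D genes was called by edgeR, 1 had an unadjusted p under 0.05, DESeq2 called 1 of them, and so did edgeR without Ctrl library L551 or L553, or without CHT library L560, L573 or both. VDR, the receptor, measured 0 to 1.36 CPM (median 0.332) and 0.604 to 2.67 CPM (median 2.002) (log2 fold change 1.74 ± 0.68, adjusted p = 0.054). CYP24A1, the enzyme induced by active vitamin D, had 0 reads in Ctrl and 9 in CHT and was not tested.

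MATN1, matrilin-1 of cartilage, measured 3.29 to 9.17 CPM (median 5.84) in Ctrl and 80.7 to 232.1 CPM (median 172.96) in CHT (log2 fold change 4.83 ± 0.43, adjusted p = 6.21e-09), and it was higher than in Lard (log2 2.53, adjusted p = 5.13e-05). No CHT library came near the Ctrl range. Of 7 cartilage markers tested, MATN1 and ACAN were higher, but the call of ACAN was lost in 9 of 20 alternative settings. SOX9, the master factor, had a log2 fold change of 0.21 ± 0.35. COL2A1, cartilage collagen, reached 60.04 CPM in 1 CHT library with a group median of 0.429 CPM and did not pass (log2 fold change 3.0 ± 1.48, adjusted p = 0.13).

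Growth factor lists held calls in 24.2% (TGF-beta and BMP), 15.6% (Wnt) and 18.2% (Notch) of the genes tested, against 19.4% of all genes in either direction. Of 33 TGF-beta and BMP genes, 7 were higher and 1 lower. CHRDL2, a BMP antagonist, measured 0.442 to 1.86 CPM (median 0.878) in Ctrl and 1.70 to 92.4 CPM (median 21.8) in CHT (log2 fold change 5.1 ± 0.77, adjusted p = 1.40e-05). BMP5 rose by 2.74 ± 0.44, and ENG and ACVRL1, receptors of endothelium, by 1.72 and 1.34. GDF10 was lower (-1.44 ± 0.43). Of 32 Wnt genes, RSPO2, an amplifier of the pathway, and LEF1, its nuclear factor, were higher. RSPO2 measured 0 to 0.625 CPM (median 0.273) and 2.43 to 6.80 CPM (median 4.98) (log2 fold change 4.03 ± 0.56, adjusted p = 4.57e-06), and LEF1 0.393 to 1.43 CPM (median 0.511) and 4.26 to 20.6 CPM (median 7.75) (log2 fold change 3.56 ± 0.62, adjusted p = 8.00e-05). WNT11 (-1.66 ± 0.45), NKD1, a feedback inhibitor (-1.04 ± 0.28), and SOST were the 3 lower ones. Without CHT library L559, 8 Wnt genes were called. AXIN2, the usual readout of Wnt activity, did not pass (-0.45 ± 0.27). Against Lard, neither RSPO2 nor LEF1 was called (log2 0.21, adjusted p = 0.83, and log2 0.91, adjusted p = 0.32). In the Notch list, 1 of 11 was higher, MFNG (2.02 ± 0.55), and 1 lower, HEY1 (-0.7 ± 0.23). The number called in this list was 1 without CHT library L560, L561 or L572 and 5 without L560 and L573 together.

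Guidance genes were higher in 8 and lower in 4 of 42 (28.6% in either direction, against 19.4% of all genes). SEMA4D, a semaphorin of leukocytes, measured 1.65 to 4.32 CPM (median 3.71) in Ctrl and 16.5 to 66.6 CPM (median 51.9) in CHT (log2 fold change 3.81 ± 0.39, adjusted p = 4.94e-08). NRP1, a co-receptor for semaphorins and VEGF, rose by 1.23 ± 0.21 and SEMA4A by 2.8 ± 0.5. SEMA3B (-0.83 ± 0.23), SEMA3C (-0.66 ± 0.22) and the receptor EPHA3 (-0.87 ± 0.24) were lower. SEMA3C lost the call without CHT library L559, L572 or L574. For positional and developmental factors, 43 were tested and 3 (6.98%, against 5.18% of all genes) were lower, HAND2 (-0.71 ± 0.13) and SOX11 (-2.15 ± 0.7) among them, with 0 higher. SOX11 lost the call without CHT library L574. HAND2 measured 45.7 to 72.6 CPM (median 54.9) and 30.6 to 40.8 CPM (median 36.7), without overlap. The list median was -0.34. The number of calls was 5 without Ctrl library L552, 6 without Ctrl L569, Ctrl L571 or CHT L560, and 7 without CHT L573, and it was 8 without CHT libraries L560 and L573 and also 8 without Ctrl libraries L569 and L571.

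Of 17 clock genes tested, 3 were higher and 6 lower. ARNTL, the activator BMAL1, measured 0.795 to 17.2 CPM (median 3.77) in Ctrl and 13.9 to 26.5 CPM (median 18.8) in CHT (log2 fold change 1.69 ± 0.54, adjusted p = 0.0205). NPAS2, its partner, measured 0.511 to 7.38 CPM (median 3.66) and 4.96 to 16.1 CPM (median 10.98) (log2 fold change 1.52 ± 0.43, adjusted p = 0.00964), and ARNTL2, its paralogue, 0 to 0.988 CPM (median 0.0561) and 1.89 to 18.4 CPM (median 7.28) (log2 fold change 4.9 ± 0.78, adjusted p = 2.89e-05). The repressor PER2 was lower without overlap, 5.47 to 21.5 CPM (median 11.1) and 1.55 to 4.71 CPM (median 1.79) (log2 fold change -2.51 ± 0.5, adjusted p = 4.16e-04). HLF and TEF, output factors in phase with PER2, measured 53.6 to 91.8 CPM (median 83.3) and 12.3 to 42.1 CPM (median 26.1) in Ctrl, and 10.5 to 57.5 CPM (median 29.0) and 4.03 to 14.4 CPM (median 9.55) in CHT. PER1, CRY1 and NR1D2 had log2 fold changes of -1.31, -1.1 and -0.98, and CLOCK did not pass (0.26 ± 0.12). Ctrl libraries spread widely for ARNTL, and the hour of tissue collection is not given in the sources used here. Against Lard, ARNTL did not pass the test (log2 0.08, adjusted p = 0.95), and PER2 was lower (log2 -1.93, adjusted p = 0.00877).

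Immediate early genes, which respond quickly to stimuli, were higher in 3 of 19 tested (15.8%, against 14.2% of all genes), with 5 called without CHT library L573 and 6 without L560 and L573. EGR2 measured 0.497 to 1.69 CPM (median 1.19) in Ctrl and 3.02 to 12.1 CPM (median 6.16) in CHT (log2 fold change 2.51 ± 0.4, adjusted p = 2.99e-05). FOSL1 had 0 reads in Ctrl and 45 over the CHT libraries, at least 15.8-fold higher against a floor of 3 reads over the Ctrl group. EGR3 rose by 2.11 ± 0.8 and lost the call in 11 of 20 alternative settings. FOS, JUN and EGR1 did not pass (0.75 ± 0.5, -1.0 ± 0.39 and 0.89 ± 0.44). Among 8 cell cycle inhibitors and senescence genes, LMNB1, lamin B1 (1.46 ± 0.23), and CDKN2C (0.82 ± 0.23) were higher beside the lower CDKN1B. Nothing about senescence is read from this list, because its members were not listed by direction. None of 17 ribosomal protein genes was called by edgeR or DESeq2, at log2 fold changes from -0.54 to -0.17, and 12 had an unadjusted p under 0.05, 8 of them also an adjusted one. Up to 2 were called under other settings.

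Immune genes are given briefly. Interferon-stimulated genes were higher in 16 of 18 tested, with OASL, an RNA sensor cofactor, from 0 to 0.284 CPM (median 0.0559) to 2.59 to 37.7 CPM (median 11.2) (log2 fold change 7.71 ± 0.78, adjusted p = 3.64e-08), and OAS2 and CXCL10 by 5.91 ± 0.65 and 5.09 ± 0.58. Complement genes were higher in 12 of 15, and the receptors C3AR1 (4.46 ± 0.42) and C5AR1 (4.24 ± 0.5) and the macrophage receptor VSIG4 (2.81 ± 0.35) led them. Adhesion molecules were higher in 12 of 18, with the leukocyte integrin genes ITGAM (6.45 ± 0.57), ITGB2 (5.69 ± 0.65) and ITGAL (6.32 ± 0.72). AIF1, a macrophage gene, measured 2.03 to 6.93 CPM (median 3.81) and 26.6 to 90.5 CPM (median 68.4). ZAP70, a T cell kinase (2.26 ± 0.69), and MS4A2, a mast cell receptor chain (2.61 ± 0.72), were higher at levels under 3 CPM, and ZAP70 lost the call without CHT library L559. CIDEA, a lipid droplet protein of adipocytes, was lower, 31.4 to 64.6 CPM (median 54.9) and 7.11 to 44.1 CPM (median 14.9) (log2 fold change -1.38 ± 0.33, adjusted p = 0.00213), and the other 5 adipocyte markers tested did not pass. SLC4A1 and TUBB1, of red blood cells and platelets, were lower (log2 -3.98 and -2.86) and lost the call without Ctrl libraries L569 and L571.

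The response was then set beside that of the aortic valve of the same study, where CHT (6 libraries) and Ctrl (7) were compared in 1 model with the aorta. The fold change of CHT over Ctrl differed between the tissues in 854 of 16125 genes (5.30%) at an adjusted p under 0.05, and it was more positive in the aorta in 685 (4.25%) and less so in the remaining 1.05% of the genes tested. The tissues also differed by plate, because the aorta libraries belonged to plate 2 and those of the aortic valve in CHT to plate 1. In Ctrl, 4 of the 7 valve libraries were on plate 2, so that in the valve the plate went in part with the group. With the plate as a covariate, the count was 441, and with the rabbit as a block 1106. DESeq2 gave 1424, and leaving out 1 library gave 528 (without valve CHT library L186) to 1909 (without valve CHT library L151). Among the genes named by rule, 56 differed, and 40 of these also passed with the plate as a covariate. These genes were chosen mainly by their p-values and changes in the aorta, which tilts their differences towards the aorta, so nothing is read from the direction of the 56.

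Most sterol genes did not pass the test of a difference between the tissues, which was the common case, as 5.3% of all genes passed it. ABCA1 had a difference of -0.03 ± 0.31, adjusted p = 0.96 and SQLE of -0.05 ± 0.35, adjusted p = 0.94. Of 14 synthesis genes, MVK and LSS had the more positive response in the aorta, since they had log2 fold changes of -1.68 and -1.4 in the valve and did not pass in the aorta. EDN1 rose in the aorta and had a log2 fold change of -0.68 in the valve, a difference of 4.31 ± 0.76, adjusted p = 2.49e-04. For VWF the valve gave -0.8 and the difference was 3.9 ± 0.79, adjusted p = 0.0018, and for BMP6 -0.25 and 4.89 ± 0.65, adjusted p = 2.68e-06. FBN2 differed by 3.83 ± 0.43, adjusted p = 7.06e-08, COL8A1 by 2.88 ± 0.54, adjusted p = 5.44e-04, TNC by 3.23 ± 0.67, adjusted p = 0.00243, THBS1 by 3.13 ± 0.6, adjusted p = 7.51e-04 and LEF1 by 3.62 ± 0.63, adjusted p = 2.12e-04. MATN1 had a log2 fold change of 2.52 in the valve and differed by 2.35 ± 0.45, adjusted p = 0.001. In the other direction, ACTA2 had a difference of -1.54 ± 0.35, adjusted p = 0.00551 with 0.97 in the valve, and CTSK of -1.16 ± 0.33, adjusted p = 0.031 with 2.46, and CTSK did not pass with the plate as a covariate (adjusted p = 0.14). Of 20 endothelial genes 5 had the more positive response in the aorta, and of 18 interferon-stimulated genes 8, against 4.25% of all genes. In the respiratory chain list 1 of 29 genes had a less positive response in the aorta, and in the citric acid cycle 2 of 13, against 1.05% of all genes. These list counts come from the fit without the plate and were not made with the plate as a covariate.

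**Figure D5:**
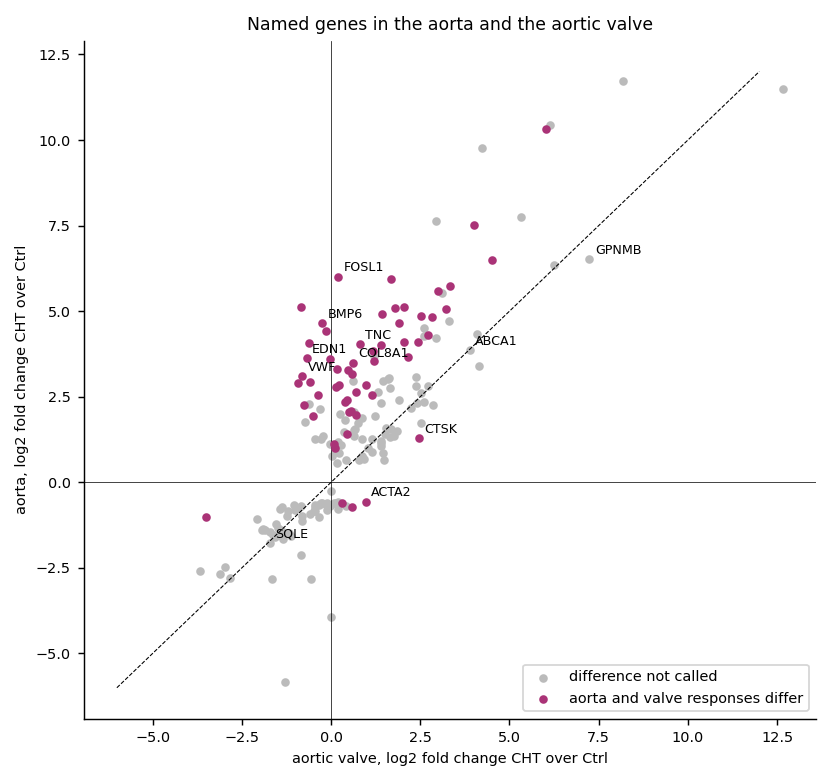
log2 fold change of CHT over Ctrl in the aorta (vertical axis) against that in the aortic valve (horizontal axis) for the genes named by rule, from 1 model of both tissues, with purple points where the responses differed at an adjusted p under 0.05 and a dashed line of equal response. ABCA1 and SQLE lie near the line, while EDN1, VWF, BMP6, TNC and COL8A1 lie well above it.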

How the data were processed

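Total RNA of aorta rings was sequenced after a stranded pico-input library preparation. The authors processed the reads with nf-core/rnaseq on OryCun2.0 and Ensembl gene models and deposited raw counts per gene, 1 table per plate. The counts (29587 genes, 14716 with a symbol) were used as deposited. The depth was 18072564 to 20857556 counts per library, and intervals cover counting error only. The aorta libraries are separate rabbits per the labels.

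Genes were filtered with filterByExpr and scaled by TMM, and all 27 aorta libraries were fitted with the quasi-likelihood test of edgeR 4.0.16 (R 4.3.3), with Benjamini-Hochberg adjustment over all genes. A gene was called at an adjusted p under 0.05 and a fold change over 1.5. The tissues were compared by an interaction term alone in 1 fit of aorta and aortic valve. DESeq2 1.42.0, its size factors, no filter, a fold change test (glmTreat), the 2 groups alone and leaving out libraries were alternatives, and scripts were tested on simulated data. The same rabbit gave both tissues, and deviations of the 27 same-rabbit pairs had a median r of 0.209, over 0.1 in 21, against -0.00405 for other pairs.

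The comparison, the 62 gene lists and the members were chosen with earlier results of these data known. Named were the 10 genes with a symbol and the smallest p in each direction, the 5 largest changes of at least 5 CPM, up to 3 called genes with the smallest p per list and direction, and a fixed set. Other genes were named after their values were seen. Elastin was not analysed here. Some genes that the rule names are not reported here.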

Additional observations from a re-analysis of the deposited data

Results flagged for a closer look

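In 20 of 362 gene and group pairs checked among the named genes, 1 library stood apart from the rest of its group by the gap to its nearest neighbour. About 18.1 such pairs are expected by chance, so the number itself is near that level. CHT library L573 accounted for 5 of them and was low each time, at 1.35 CPM for BMP6, 24.1 CPM for COL8A1, 3.40 CPM for EDN1, 37.4 CPM for PECAM1 and 8.80 CPM for MMP28. The other CHT libraries measured at least 10.9, 112, 22.2, 125 and 11.3 CPM for these genes. In the rest of CHT, AIF1 was low in L560 (26.6 CPM), FBN2 low in L559 (8.54 CPM), PER2 high in L559 (4.71 CPM) and WNT11 low in L574 (0.281 CPM).

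Ctrl library L569 also accounted for 5, with low values for ABCA1 (42.7 CPM), FLI1 (10.8 CPM), PFKFB3 (17.6 CPM) and MFAP5 (131 CPM) and a high value for COL5A2 (1060.0 CPM). In Ctrl library L552, COL8A1 was high (19.0 CPM) and TNC low (3.63 CPM). TIMP1 was high in L551 (109 CPM), EDN1 low in L570 (1.26 CPM), and CACNA2D1 (126 CPM) and CDKN2C (2.79 CPM) were low in L571.

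The response of CHT against Ctrl differed between the aorta and the aortic valve in 56 named genes, by the interaction term of edgeR at an adjusted p under 0.05. The values below are the log2 fold change in the aorta minus that in the valve, and 40 of the 56 also passed with the plate as a covariate and 49 with the rabbit as a block. These genes were named mainly for their change in the aorta, which tilts the differences towards that tissue. With the plate, FCER1G, ITGAM, SLC7A7, ITGB2, FTL, CTSK, SRXN1, HK3, LAMB1, LOXL4, LOXL2, RYR2, LAMA4, NOS3, ALPL and ACAN did not pass, and with the rabbit as a block, FABP5, SLC7A7, CXCL10, LAMB1, LOXL4, RYR2 and ALPL did not. Among these genes, those of myeloid cells and immunity that differed were LY86 at 3.52, HLA-DMA 2.02, CD300LF 4.31, FCER1G 1.84, LPCAT2 3.30, DOCK10 1.92, AIF1 1.65, ITGAM 1.96, ITGB2 2.38, MSR1 2.60, SEMA4D 2.65, SEMA4A 2.60, SRGN 2.05, OAS2 4.26, CXCL10 3.08, VSIG4 1.87, TBXAS1 2.58 and FABP5 1.58. Other named myeloid genes did not pass, such as ITGAL (0.11), CTSS (0.24), LYN (0.7) and GPNMB (-0.73). Of the 13 macrophage markers 7 had the more and 1 the less positive response in the aorta, against 4.25% and 1.05% of all genes. Of genes of the matrix and its enzymes, MATN1 measured 2.35, FBN2 3.83, COL8A1 2.88, TNC 3.23, THBS1 3.13, LAMB1 0.96, LOXL4 1.56, LOXL2 1.5, SDC4 0.90, P4HA3 2.79 and ACAN 2.45. Growth factor, bone and transcription factor genes measured 4.89 for BMP6, 2.65 for BMP5, 5.97 for CHRDL2, 4.67 for RSPO2, 3.62 for LEF1, 3.53 for ALPL, 3.51 for ARNTL2, 2.91 for EGR2 and 5.80 for FOSL1. Endothelial and clotting genes measured 4.31 for EDN1, 3.90 for VWF, 3.03 for NOS3, 1.05 for FLI1 and 4.58 for F5. Metabolic genes measured 1.51 for SLC7A7, 2.74 for SLC46A1, 1.4 for FTL, 2.31 for CP, 1.27 for SRXN1, 1.94 for SHMT2, 2.61 for HK3 and 1.94 for PFKFB3. RYR2 measured 2.50, but 1.49 with the plate as a covariate (adjusted p = 0.327) and 1.03 with the rabbit as a block (adjusted p = 0.294). In the valve, the 9 heart muscle markers tested, RYR2 among them, had a median log2 fold change of -4.9, and their part in this result was not tested. The response was less positive in the aorta for CTSK (-1.16), LAMA4 (-0.91), GUCY1B1 (-1.31) and ACTA2 (-1.54).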

How the results depend on the processing

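The 2863 genes called between CHT and Ctrl became 3185 with DESeq2, 2849 with its size factors, 2792 without a filter, 2436 with these groups alone and 1421 with a test against the fold change itself, and leaving out 1 library gave 2311 to 3177. Without CHT libraries L560 and L573 there were 3526, and without Ctrl libraries L569 and L571 there were 2673, both left out after seeing the data. The share of higher genes among the calls was 69.4% to 78.8% across these settings, but 93.8% with the test against the fold change (73.3% as reported). The 765 lower genes became 491 to 910 when 1 library was left out, with moves over 1.5 times without CHT L572 (491) and L574 (501), and 88 with the test against the fold change. For CHT against Lard, 1382 genes became 991 to 1555 when 1 library was left out, and the 299 lower genes became 143 to 339, with moves over 1.5 times without CHT L572 (143), CHT L574 (144) and Lard L564 (955 of 1154 genes higher). Without a filter, 1002 of 1195 genes were higher, and without CHT L560 and L573 the lower genes numbered 454. The 854 genes with different responses in aorta and valve became 540 without a filter, 861 with DESeq2 size factors, 1424 with DESeq2 and 441 with the plate as a covariate, and the cause was not tested. Leaving out 1 library gave 528 to 1909, with moves over 1.5 times without aorta CHT library L572 (443 higher and 103 lower in the aorta) and without valve libraries CHT L151 (1909), CHT L186 (528), Ctrl L182 (1376) and Ctrl L277 (1536). With the rabbit as a block, the pairing of both tissues gave 1106, of which 776 were higher and 330 lower in the aorta. No paired fit exists between CHT and Ctrl, which hold different rabbits.

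Of the genes named by rule, 120 were called under all 20 alternative settings and none changed direction, while 63 lost the call in at least 1. Those most often lost were CSPG4, THRSP, ALAS2, SLC4A1, HSPG2, HSPB6 and EGR3, followed by TUBB1, ACAN, SREBF2, LUM and HEY1. Depth limits genes near 1 CPM, where counting alone gives an SD of 23.1%. Promoter motifs were not searched.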
